A study of Homo sapiens with 36 samples.

Results

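Day 3 of neuronal induction was compared between 4 libraries labelled HET and 4 labelled WT, which are 8 of the 36 libraries of the series. The 8 were taken by their genotype and time labels alone. All cells were H9, a human embryonic stem cell line, in which doxycycline switches on NGN2 (gene symbol NEUROG2). Cells labelled WT were wild type, HET cells were RAI1+/− and KO cells were RAI1−/−. Each genotype was sampled on days 0, 3 and 7 with 4 biological replicates, in Neurobasal-A medium with B27, GDNF, NT3 and CultureOne during induction. KO libraries of day 3 entered the same fit and a direct comparison with HET, and the day 0 and day 7 libraries served to follow the same genes. Neither the number of clones behind each genotype nor the change made in RAI1 is given in the labels, so the genotype and the clone that carries it cannot be told apart.

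RAI1 is a nuclear protein that binds nucleosomes and works with chromatin proteins that include PHF14 and TCF20. Loss of a single copy causes Smith-Magenis syndrome, a neurodevelopmental disorder with disturbed sleep, and a gain of a copy causes Potocki-Lupski syndrome. NGN2 is a proneural basic helix-loop-helix transcription factor. When forced on in pluripotent cells it starts a cascade of further factors, such as NEUROD4, INSM1 and the EBF proteins, which is followed by genes of the neuronal cytoskeleton and then of the synapse.

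The 8 libraries held 32.0 to 56.7 M counts. A principal component that carried 45.7% of the variance among them put WT replicate 4 (−81.7) and HET replicate 4 (−57.7) at one end and HET replicates 2 (83.6) and 3 (85.8) at the other. A set of 5 small structural RNAs, the signal recognition particle RNAs RN7SL1 and RN7SL2 with RN7SK, RMRP and RPPH1, took 8.99% to 19.6% of the WT counts and 5.11% to 16.1% of the HET counts, a difference smaller than the spread between libraries (exact two-sided permutation test, p = 0.486, n = 4 each). Mitochondrially encoded transcripts took 0.76% ± 0.0522 of WT and 1.09% ± 0.182 of HET counts (SD, n = 4), and these groups did not overlap; the part of this difference in the results below was not tested. Checked against the labelled cell type, the neuronal genes TUBB3 and MAP1B averaged 918 and 2451 CPM (counts scaled to the library total) in WT at day 3, the pluripotency factor POU5F1 averaged 9.72 CPM and NANOG 0.0614 CPM. A list of 20 pluripotency genes that includes these 2 still summed to 559 to 703 CPM in WT.

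RAI1 (chromosome 17, 17681473 to 17811453, GRCh38) gave 83.7, 69.6, 45.9 and 37.9 CPM in WT replicates 1 to 4 and 66.7, 90.6, 81.3 and 37.5 CPM in HET. The groups overlapped, with the lowest value of each in replicate 4. Means were 59.3 ± 21.1 and 69.0 ± 23.2 CPM (SD, n = 4), and the difference was smaller than the spread between replicates (exact two-sided permutation test, p = 0.629; the smallest p that 4 against 4 allows is 0.0286). The RAI1 count therefore did not separate the labels and does not check them, so HET and WT stand here for libraries so labelled. Its partners PHF14 (log2 fold change, HET over WT, 0.31 ± 0.14 SE) and TCF20 (0.06 ± 0.17) did not pass the test either (adjusted p = 0.348 and 0.923, edgeR).

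Across the genome, most differences were gains in HET. Of 21563 genes tested, 544 (2.52%) were higher in HET and 164 (0.761%) were lower, at an adjusted p under 0.05 in edgeR's quasi-likelihood test with Benjamini-Hochberg adjustment. Among the genes that rose, the median log2 change was 1.52, 429 changed at least 2-fold and 70 at least 16-fold. Among those that fell, 125 changed at least 2-fold and 18 at least 16-fold, with a median of 1.44 on the log2 scale. HET and WT libraries did not overlap for 465 of the 544 and 162 of the 164. The share over all genes tested was 8.42% (HET above WT in 4.31% and below in 4.11%). The test favours genes whose groups lie apart, so this contrast is no separate support. Rising genes were long: the protein-coding ones had a median gene span of 57.5 kb against 33.6 kb for all protein-coding genes tested and 30.6 kb for those that fell. With the replicate number as a block 1895 genes passed, of which 65.2% were higher against 76.8% in the fit without it. Without HET replicate 4 the count was 1416, without HET replicate 3 it was 385, without replicate 4 of both groups (an alternative chosen after seeing the data) it was 880, and limma on the deposited TPM values passed 39 (64.1% higher). With the KO libraries left out of the fit, 493 genes passed, of which 73.2% were higher.

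The largest gains were in genes for which WT libraries held no or almost no counts. In 25 of the 544 all 4 WT libraries had 0 counts, and in 50 none had more than 3. Genes at 0 in WT passed the low-count filter only through HET or KO counts, so none of them could be lower in HET. Of the 164 genes that fell, 12 had no more than 3 counts in any HET library. MAGEH1 (chromosome X, 55452105 to 55453566), of the MAGE protein family, gave 41.0, 29.7, 38.0 and 49.7 CPM in HET replicates 1 to 4 and 0 counts in every WT library. HET was thus at least 585-fold higher, against a floor of 3 counts per library. CRYZ (chromosome 1, 74705482 to 74733408), a quinone reductase, gave 33.4, 32.3, 36.2 and 32.4 CPM in HET and 0 counts in WT, at least 497-fold higher. Its 4 HET values lay within 4 CPM of each other. TYW3 (chromosome 1, 74733152 to 74766678), an enzyme that makes the modified base wybutosine in transfer RNA, gave 22.99, 30.3, 27.1 and 12.6 CPM in HET and a single count in all WT libraries together. PUS7L (chromosome 12, 43718993 to 43758817), of the pseudouridine synthase family, gave 20.6, 29.3, 29.8 and 8.73 CPM in HET and 0 counts in WT, at least 327-fold higher. IRAK4 (chromosome 12, 43758944 to 43789543), the kinase that carries signals from Toll-like and interleukin-1 receptors, gave 12.9, 11.9, 11.9 and 6.82 CPM in HET and 0 counts in WT, at least 161-fold higher. For these 5 genes every HET library lay far above every WT library, and the lowest HET value of PUS7L and IRAK4 was that of replicate 4.

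The remaining large rises were FAM174A (8.12 ± 1.65 CPM in HET, SD, n = 4; at least 120-fold higher), the transcription factor of the developing nervous system POU3F4 (14.1 ± 7.19 CPM; at least 209-fold), the Rag GTPase RRAGB that signals amino acids to mTORC1 (6.71 ± 3.44 CPM; at least 99.15-fold), the membrane protein ITM2A (6.43 ± 4.43 CPM; at least 95.1-fold) and the long noncoding RNA D21S2088E (5.35 ± 1.67 CPM; at least 79.1-fold). All 5 had 0 counts in each WT library. EDA2R, a receptor of ectodysplasin A2, averaged 15.2 ± 1.76 CPM in HET and USP51, a deubiquitinase of histone H2A, 6.59 ± 3.42 CPM, each with a single count in all WT libraries together. All 12 passed in every fit that left out 1 library, with adjusted p between 1.01e-08 and 0.000316 on all libraries. The KO libraries expressed these genes too. Tested directly against HET, 10 of the 12 did not pass, while POU3F4 (56.3 ± 19.2 CPM in KO; log2 KO over HET 1.98, adjusted p = 0.031) and D21S2088E (16.4 ± 6.38 CPM; log2 1.60, adjusted p = 0.0142) were higher again in KO. In that comparison 2.77% of all genes tested were higher in KO, 1.58% lower and 4.35% either.

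**Figure D1:**
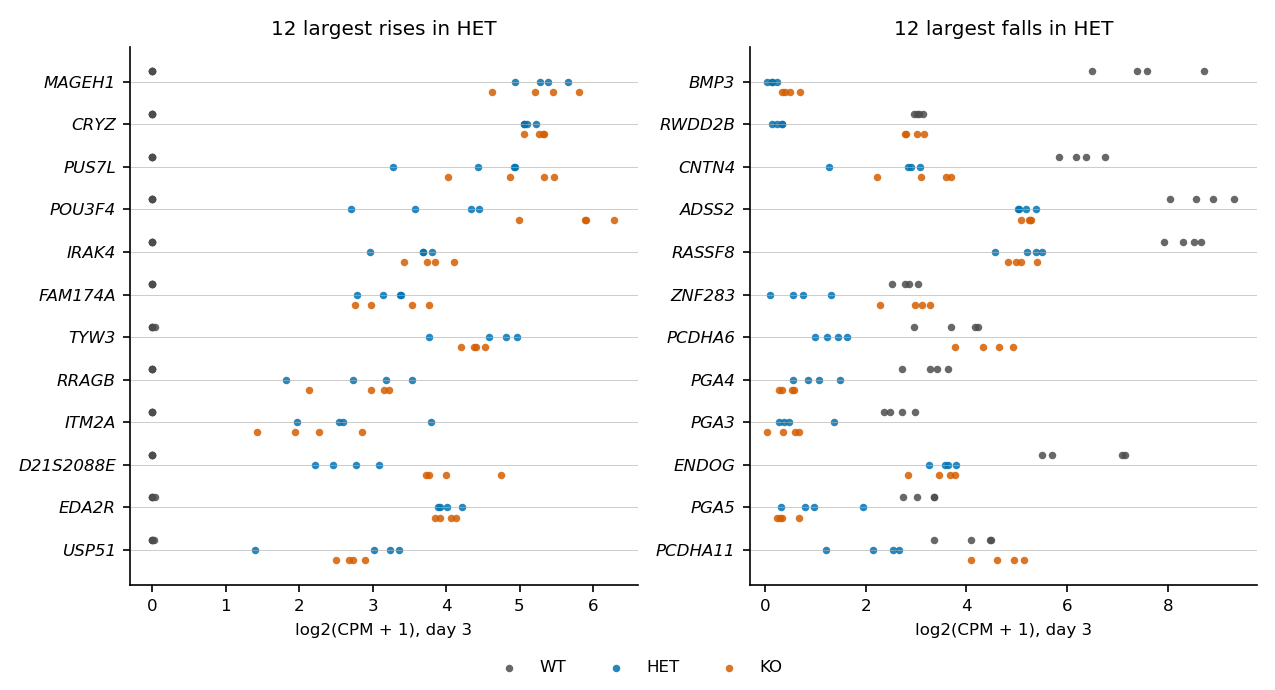
Expression at day 3 of the 12 largest rises (left) and 12 largest falls (right) in HET against WT, as log2(CPM + 1) on the x axis; each point is 1 library, 4 per genotype. WT libraries lie at or next to 0 for all 12 rises, and KO libraries lie near HET for most genes but near WT for RWDD2B, ZNF283, PCDHA6 and PCDHA11.

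Some of the silent genes share a start region. Among 1156 pairs of tested protein-coding genes whose starts lie on opposite strands within 1000 bp of each other, at least 1 member was called in 35 and both in 5, and in 4 of these both moved in the same direction. By their outermost starts in GENCODE 29, CRYZ and TYW3 start 256 bp apart and overlap there, and PUS7L and IRAK4 start 127 bp apart. FAM174A has a divergent noncoding transcript, FAM174A-DT, which was not among these pairs of protein-coding genes and is named after its values were seen. It had 0 counts in every WT library and 0.584 ± 0.208 CPM in HET (SD, n = 4), at least 8.63-fold higher. The 3 start regions are shown because at each of them 2 transcripts with no or 1 count in WT were present in HET. Without strand in the counting, reads where transcripts of CRYZ and TYW3 overlap cannot be assigned to one of them. They are RefSeq promoter windows on GRCh38.p14, 250 bases before to 50 after the start, printed 5′ to 3′ on the gene's strand with each CG in capitals, since CG is the dinucleotide that DNA methylation acts on.

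CRYZ: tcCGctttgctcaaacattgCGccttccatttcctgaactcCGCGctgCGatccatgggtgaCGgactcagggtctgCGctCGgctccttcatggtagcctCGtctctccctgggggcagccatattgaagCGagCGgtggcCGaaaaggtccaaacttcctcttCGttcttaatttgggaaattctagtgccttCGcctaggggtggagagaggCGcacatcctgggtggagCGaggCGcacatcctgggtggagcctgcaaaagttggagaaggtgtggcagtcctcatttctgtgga
IRAK4: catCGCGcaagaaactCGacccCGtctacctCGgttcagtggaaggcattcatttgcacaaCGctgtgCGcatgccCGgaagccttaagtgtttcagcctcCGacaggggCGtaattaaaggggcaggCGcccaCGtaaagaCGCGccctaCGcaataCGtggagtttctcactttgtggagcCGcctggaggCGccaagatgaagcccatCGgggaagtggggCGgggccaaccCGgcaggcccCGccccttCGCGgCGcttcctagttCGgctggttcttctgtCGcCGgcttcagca
FAM174A: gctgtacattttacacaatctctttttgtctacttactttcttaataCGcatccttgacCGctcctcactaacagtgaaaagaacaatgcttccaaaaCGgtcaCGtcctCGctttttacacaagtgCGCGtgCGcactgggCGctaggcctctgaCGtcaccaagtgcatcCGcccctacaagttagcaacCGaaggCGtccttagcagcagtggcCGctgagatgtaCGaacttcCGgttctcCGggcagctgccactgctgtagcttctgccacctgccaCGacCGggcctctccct

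The CRYZ window (chr1:74733001-74733300, minus strand) held 17 CG, and 46.0% of 35116 promoter windows of this length held as many. This window follows RefSeq's start of CRYZ, which lies inside the longest GENCODE model. TYW3 starts on the opposite strand at base 149 of the window, upstream of that RefSeq start, so that transcripts from these 2 starts do not overlap. The IRAK4 window (chr12:43758701-43759000, plus strand) held 28 CG, which 26.2% of windows reached, and PUS7L starts at its base 117. The FAM174A window (chr5:100535124-100535423, plus strand) held 19 CG, which 42.9% of windows reached, and FAM174A-DT starts at its base 139. The count of CG is a description of the letters and was set beside no methylation data.

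Falls in HET were fewer. BMP3 (chromosome 4, 81030965 to 81057531), a bone morphogenetic protein that counteracts other members of its family, gave 421, 166, 192 and 88.5 CPM in WT. HET gave 0.101, 0.106, 0.176 and 0.031 CPM, a 2087-fold lower mean (log2 −10.84 ± 0.57 SE, adjusted p = 9.9e-08). In the HET libraries 3 counts are 0.0529 to 0.0938 CPM. HET values of BMP3 lie near that level, so the size of this fold is uncertain. ADSS2 (chromosome 1, 244408494 to 244452134), which makes the precursor of AMP, gave 262, 632, 475 and 374 CPM in WT and 31.3, 40.8, 35.3 and 32.2 CPM in HET (log2 −3.64 ± 0.24, adjusted p = 8.91e-07). RASSF8 (chromosome 12, 25959029 to 26079892), a Ras-association protein of cell contacts, gave 363, 401, 243 and 315 CPM in WT and 40.6, 44.5, 35.7 and 22.6 CPM in HET (−3.21 ± 0.22, adjusted p = 1.07e-06). In all 3, the lowest WT library was several times above the highest HET library. CNTN4, a contactin of growing axons, fell from 79.1 ± 21.1 to 5.38 ± 2.71 CPM, and ENDOG, mitochondrial endonuclease G, from 93.0 ± 52.2 to 10.95 ± 1.79 CPM (SD, n = 4). KO libraries had the low level as well: ADSS2 averaged 36.2, RASSF8 33.0, ENDOG 10.1, CNTN4 8.55 and BMP3 0.402 CPM in KO, and none of the 5 passed in the test of KO against HET.

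Another group of falls was seen in HET and not in KO. RWDD2B (chromosome 21, 29004384 to 29019378), an RWD-domain protein, gave 7.09, 7.37, 7.77 and 6.81 CPM in WT and 0.254, 0.265, 0.176 and 0.094 CPM in HET (log2 −5.18 ± 0.29 SE, adjusted p = 1.41e-07). The KO libraries gave 5.92, 7.15, 7.95 and 5.85 CPM, which overlap WT, and KO exceeded HET by a log2 of 5.08 (adjusted p = 4.53e-07). The zinc finger gene ZNF283 fell from 6.02 ± 1.05 to 0.670 ± 0.593 CPM, and the clustered protocadherins PCDHA6 and PCDHA11, adhesion proteins that mark single neurons, from 13.3 ± 5.06 to 1.54 ± 0.462 and from 16.9 ± 5.68 to 3.72 ± 1.79 CPM. Each was higher in KO than in HET (log2 3.33, 3.78 and 2.79; adjusted p = 0.00376, 2.13e-05 and 0.000843). PCDHA genes share their last exons and PCDHA6 overlaps the rest of the cluster, so how reads were divided among them is uncertain. Among the 12 largest falls were also PGA3, PGA4 and PGA5, near-identical pepsinogen A genes on chromosome 11 that cannot be told apart with certainty. Their WT means were 5.31, 8.82 and 7.80 CPM and their HET means 0.627, 1.05 and 1.20 CPM. PGA3 and PGA5 failed in 7 of 8 fits without 1 library (adjusted p up to 0.104 and 0.0978, both without HET replicate 2).

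Some of the day 3 differences were also called at day 0, before induction. Of the 544 genes that rose, 476 were also tested at day 0 and 111 of these were higher in HET then, which is 23.3% of the day 3 genes and 44.6% of the 249 that rose at day 0 (1.22% of all genes tested at day 0 were higher there, 0.411% lower and 1.63% either). Of the 164 that fell, 36 of 147 were lower at day 0. At day 7, 240 of 526 were again higher and 25 lower, where 8.31% of all genes tested were higher, 6.1% lower and 14.4% either, and 60 of 144 were again lower. MAGEH1, CRYZ, PUS7L, IRAK4, FAM174A, TYW3, RRAGB and USP51 were higher in HET on all 3 days. Their WT libraries held at most 4 counts on any day. The level in HET moved with time: CRYZ averaged 32.5, 33.6 and 12.1 CPM on days 0, 3 and 7, TYW3 43.5, 23.2 and 8.33 CPM, MAGEH1 13.3, 39.6 and 42.7 CPM, and IRAK4 3.34, 10.9 and 8.23 CPM. The same held for the falls seen in HET and not in KO. RWDD2B was lower at day 0 (log2 −5.70, adjusted p = 3.58e-08) and day 7 (−3.95, adjusted p = 2.79e-05), and so were ZNF283, PCDHA6 and PCDHA11. The day 7 count depends on HET day 7 replicate 1. Without that library 7674 genes were called in place of 3129, and 47.8% of them were higher in place of 57.7%.

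Other differences changed between days. The HET-WT difference differed from day 0 in 67 genes (0.271% of 24764; 0.182% upward and 0.0888% downward at day 3) and from day 7 in 1174 (4.74%; 2.06% upward and 2.69% downward at day 7). With limma on TPM both balances turned, from 45 upward and 22 downward to 23 and 40 between days 0 and 3, and from 509 and 665 to 71 and 38 between days 3 and 7. In the edgeR fit 38 genes differed from both. On day 3 the signed log2 difference, HET over WT, lay above that of both other days in 27 of them. It lay below that of both other days in 11, which is a direction and not a smaller gap. The 11 included BMP3, which averaged 2.56, 217 and 24.7 CPM in WT on days 0, 3 and 7 and 3.51, 0.104 and 14.8 CPM in HET. ADSS2 averaged 82.1, 436 and 49.7 CPM in WT and 99.6, 34.9 and 36.4 CPM in HET, RASSF8 71.3, 330.5 and 72.5 CPM in WT and 88.3, 35.8 and 86.2 CPM in HET. ENDOG averaged 4.89, 93.0 and 13.95 CPM in WT and 4.40, 10.95 and 15.3 CPM in HET. The endosome tether EEA1, named after its values were seen, averaged 148 CPM in WT and 47.0 CPM in HET at day 3. In each of these 5 genes the WT mean of day 3 was above those of days 0 and 7, and all HET libraries of day 3 lay below all WT libraries of day 3.

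The 27 included DUSP5 (chromosome 10, 110497838 to 110511544), a nuclear phosphatase that inactivates ERK. It gave 429, 699, 575 and 874 CPM in HET at day 3 and 1.46, 2.53, 1.24 and 2.25 CPM in WT, a 345-fold higher mean (log2 8.45 ± 0.46 SE, adjusted p = 1.17e-07). KO libraries gave 1.23 to 4.19 CPM, so the rise was in HET and not in KO (log2 KO over HET −8.19, adjusted p = 4.53e-07). In HET it averaged 31.8 CPM at day 0 and 12.3 CPM at day 7, when it was still above WT (log2 2.19). SLITRK5 (chromosome 13, 87672615 to 87696272), a transmembrane protein of synapses, gave 332, 319, 282 and 272 CPM in HET and 28.7, 22.1, 22.8 and 25.0 CPM in WT (log2 3.62 ± 0.17, adjusted p = 1.9e-08). Its neighbour on the opposite strand, the noncoding MIR4500HG, rose from 0.486 ± 0.211 to 51.8 ± 25.99 CPM, and the divergent transcript DUSP5-DT from 0.121 ± 0.0773 to 3.01 ± 1.95 CPM. PDE4D, which breaks down cyclic AMP, gave 113, 133, 144 and 138 CPM in HET and 0.55 to 1.59 CPM in WT (log2 7.18 ± 0.51, adjusted p = 1.45e-06). SLITRK5, MIR4500HG, DUSP5-DT and PDE4D were also named after their values were seen, and in each KO lay far below HET (log2 −4.21, −6.34, −5.22 and −4.74; adjusted p at most 0.000426). At day 7 SLITRK5 (log2 1.3, adjusted p = 0.00407), MIR4500HG (3.33, adjusted p = 7.26e-05) and PDE4D (4.22, adjusted p = 0.000438) were still higher in HET than in WT, and PDE4D then averaged 49.7 CPM in HET and 43.3 CPM in KO. The ephrin receptor EPHA7 had the same order: 122, 46.5, 27.8 and 37.2 CPM in HET, 4.38 to 6.93 in WT and 6.21 to 8.198 in KO (HET over WT log2 3.42 ± 0.39, adjusted p = 0.000229; KO over HET −3.04, adjusted p = 0.000849).

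**Figure D2:**
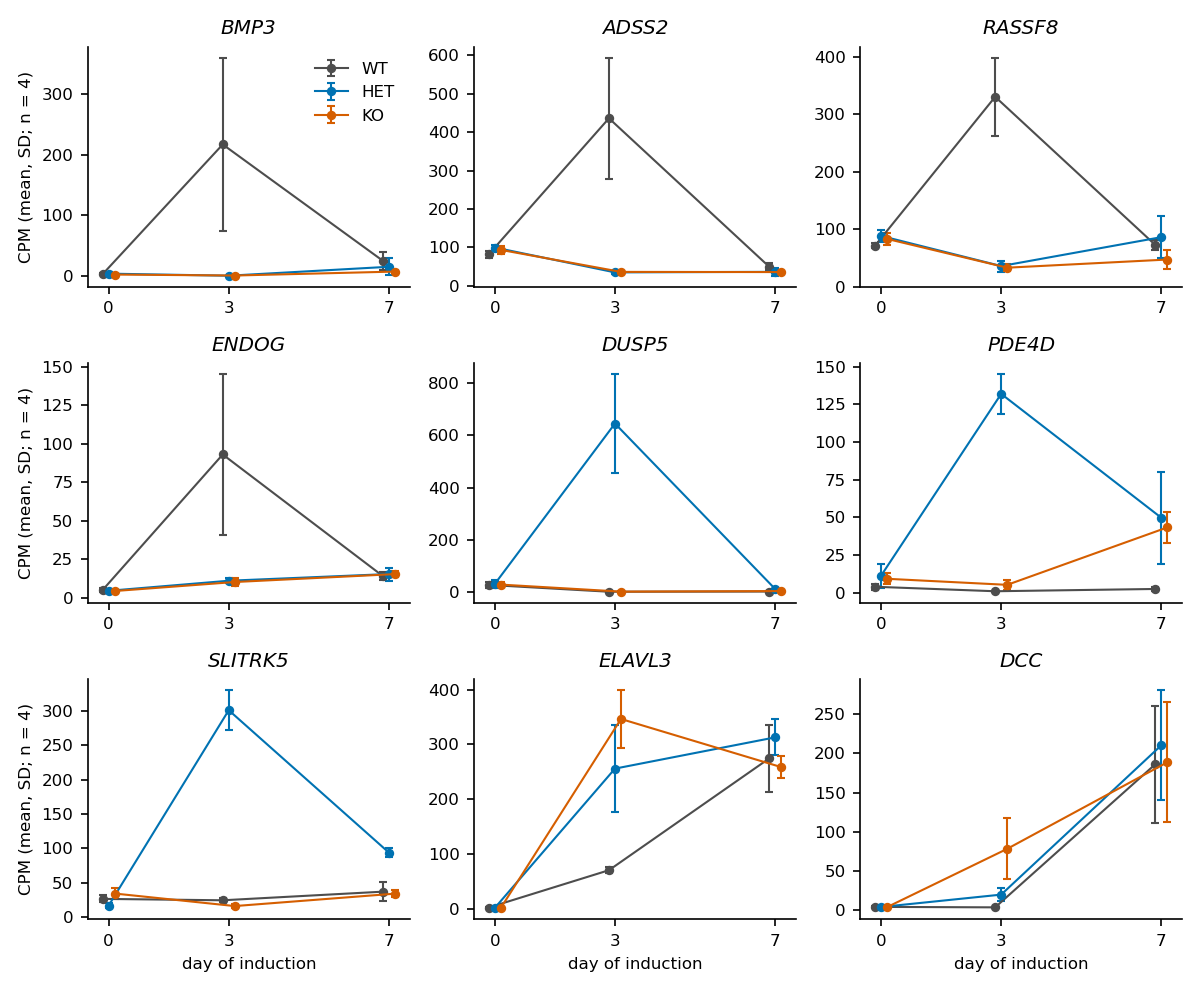
Mean CPM (y axis, linear; bars show the SD of 4 libraries) of 9 genes on days 0, 3 and 7 (x axis) in WT, HET and KO. BMP3, ADSS2, RASSF8 and ENDOG peak in WT at day 3, DUSP5, PDE4D and SLITRK5 peak in HET at day 3, and ELAVL3 and DCC are higher in HET and KO than in WT at day 3, while their day 7 means run from 258.5 to 313 CPM and from 186 to 210.5 CPM.

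Many neuronal genes were higher in HET. The lists were chosen with earlier results of these data known, so their shares describe the data and are no independent test. Over 8 lists of neuronal genes 199 were tested, 51 were higher in HET and 2 were lower (26.6% against 3.28% of all genes), the median log2 difference was 0.81 against 0.02 for all genes, and 174 of the 199 were positive. The median difference from the WT mean, on log2(CPM + 1), was −0.05, 0.15, 0.00 and −0.09 in the WT libraries, 0.47, 0.93, 0.72 and 0.23 in HET and 1.32, 1.36, 1.00 and 0.90 in KO. All HET libraries lay above all WT libraries, HET replicate 4 was closest to WT, and HET replicate 2 just exceeded the lowest KO library. KO exceeded HET in 47 of these genes and was lower in 3, where 2.77% of all genes tested were higher in KO and 1.58% lower. At day 0, 7 of 186 were higher in HET (median 0.09), where 1.22% of all genes tested were higher. At day 7, 76 of 199 were higher and 11 lower (median 0.71), where 8.31% of all genes tested were higher and 6.1% lower. NEUROG2, whose reads may include the induced transgene, gave 19470 to 24750 CPM in WT, 14420 to 17470 CPM in HET and 7505 to 9748 CPM in KO. These groups did not overlap, although the HET-WT difference did not pass (log2 −0.46 ± 0.20, adjusted p = 0.325; 0.0473 with the replicate block). The part of NEUROG2 in the neuronal result was not tested. Of the 199 genes, 74 were higher without HET replicate 4, 27 without HET replicate 3, 67 without replicate 4 of both groups, 95 with the block and 2 with limma on TPM, while the median lay between 0.58 and 0.91 in these fits.

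**Figure D3:**
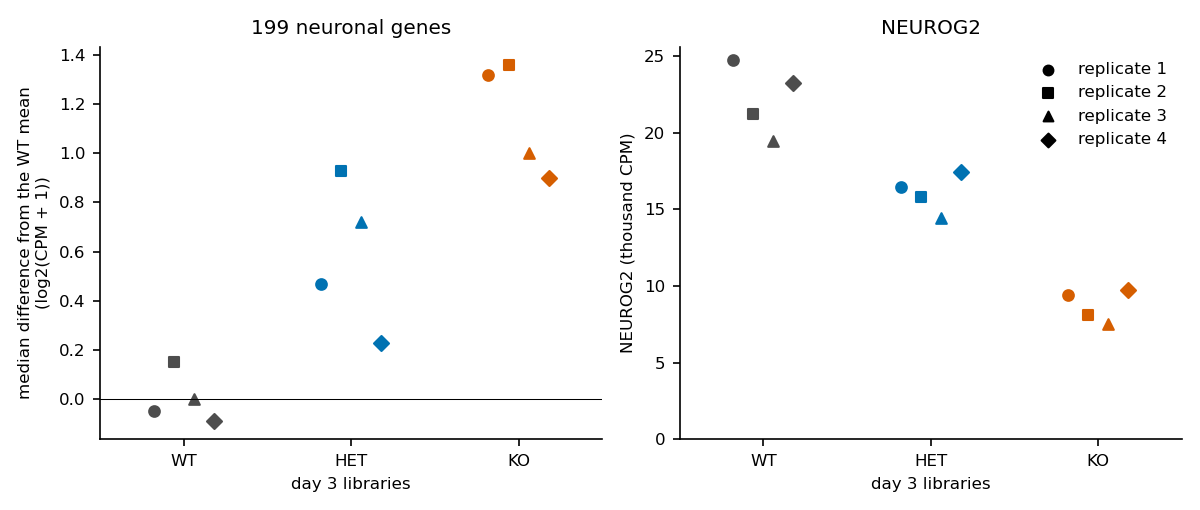
Left, median difference from the WT mean over 199 neuronal genes in each day 3 library, on log2(CPM + 1); right, NEUROG2 in units of 1000 CPM. Marker shape gives the replicate. HET libraries lie between 0.23 and 0.93 on the left, above WT, and between WT and KO on the right.

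Transcription factors of the proneural cascade had the highest median of the 19 lists. Of 25 tested, 12 were higher and none lower, with a median log2 of 1.51. Over all genes tested 2.52% were higher and 0.761% lower, which are the shares to set beside this and each later list. The count was 18 without HET replicate 4, 7 to 9 without any other single library and 19 (with 1 lower) with the block. NHLH1, a helix-loop-helix factor of newborn neurons, gave 166, 145, 174 and 176 CPM in WT and 431, 436, 445 and 378 CPM in HET (log2 1.35 ± 0.17 SE, adjusted p = 0.000394). INSM1, a zinc finger factor of progenitors that leave division, rose from 39.7 ± 11.8 to 167 ± 64.4 CPM (2.06 ± 0.29, adjusted p = 0.000948), and EBF3 from 59.25 ± 12.01 to 176 ± 72.9 CPM (1.57 ± 0.26, adjusted p = 0.00414). The groups did not overlap for NHLH1, INSM1 or EBF3, and the lowest HET value was in replicate 4 for all 3. NEUROD4, a direct target of NGN2, averaged 223 ± 18.7 CPM in WT and 340 ± 28.3 CPM in HET without passing (adjusted p = 0.0803; 0.00935 with the block). At day 7 INSM1 averaged 189 CPM in WT and 155 CPM in HET (log2 −0.27, adjusted p = 0.699).

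Some cytoskeletal and RNA-binding genes rose. Among 25 cytoskeletal and pan-neuronal genes 8 were higher and none lower (median 0.87), and all 25 had a positive difference. The 8 became 2 without HET replicate 2 or 3, 3 to 5 without any 1 of the WT libraries, 7 without HET replicate 1, 13 without HET replicate 4 and 17 with the block. The neurofilament genes NEFM (28.1 ± 5.34 to 100.2 ± 38.4 CPM; log2 1.83 ± 0.32, adjusted p = 0.00489) and NEFL (91.5 ± 29.7 to 297.5 ± 88.6 CPM; 1.69 ± 0.31, adjusted p = 0.00737) and the stathmin STMN2, which regulates microtubules in growth cones, rose. STMN2 gave 233, 437, 510 and 79.4 CPM in HET against 35.6 to 90.0 in WT, so that HET replicate 4 fell within the WT range (adjusted p = 0.0176; 0.0642 without WT replicate 1). The filament gene INA likewise had 44.5 CPM in HET replicate 4 and 105 to 217 in the others, against 31.1 to 47.5 in WT (adjusted p = 0.0167; 0.0687 without WT replicate 1). TUBB3 (mean 918 CPM in WT and 1375 CPM in HET) and MAP1B (2451 and 4278 CPM) did not pass (adjusted p = 0.177 each). Among 19 neuronal RNA-binding genes 7 were higher and none lower (median 0.74), against 4 without HET replicate 2 or 3 or without WT replicate 2, 3 or 4, and 11 with the block. ELAVL4, which stabilises neuronal messages, gave 135, 129, 182 and 79.5 CPM in HET and 3.78, 9.76, 20.6 and 10.8 CPM in WT (log2 3.52 ± 0.50, adjusted p = 0.00108), with no overlap. Its relative ELAVL3 (log2 1.86 ± 0.19, adjusted p = 9.93e-05), the splicing factor NOVA2 (53.1 ± 4.45 to 163 ± 47.1 CPM; 1.61 ± 0.20, adjusted p = 0.000383) and CELF4 (3.17 ± 0.334 to 6.81 ± 1.65 CPM; adjusted p = 0.00843) rose as well.

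Some synaptic and channel genes rose. Of 26 presynaptic genes 6 were higher and none lower (median 0.71). The 6 became 3 without HET replicate 2 or 3 or without WT replicate 2 or 4, 4 without WT replicate 1 or 3, 11 (with 1 lower) without HET replicate 4 and 16 (with 1 lower) with the block. The vesicle protein SYT11 gave 95.8, 150, 177 and 85.6 CPM in HET and 11.8 to 19.7 CPM in WT (log2 3.04 ± 0.33, adjusted p = 0.00013), and it was higher in HET at day 0 as well (log2 3.23, adjusted p = 1.11e-05). CPLX1, a brake and trigger of vesicle fusion, rose from 29.02 ± 7.15 to 73.5 ± 11.2 CPM, the vesicle GTPase RAB3A from 5.71 ± 1.44 to 15.6 ± 4.46 CPM and SV2B from 7.19 ± 2.73 to 22.03 ± 12.98 CPM (adjusted p = 0.000881, 0.0119 and 0.0282; SV2B 0.0969 without WT replicate 1). The glutamate transporter SLC17A7, a mark of the excitatory neurons that NGN2 gives, averaged 150 ± 22.4 CPM in WT and 221 ± 27.8 CPM in HET without passing (adjusted p = 0.163; 0.0166 with the block). Of 23 postsynaptic genes 3 were higher (median 0.42), against 1 without HET replicate 2 or 3 or without WT replicate 1, 2 or 3, and 6 with the block. Among them were the glutamate receptor subunits GRIA3 (9.10 ± 1.85 to 24.5 ± 7.58 CPM, adjusted p = 0.00496) and GRIN2D (20.7 ± 3.69 to 41.5 ± 16.3 CPM, 0.0428). GRIN2D reached an adjusted p of 0.159 without HET replicate 3. Of 24 voltage-gated channels 6 were higher (median 0.95), among them the potassium channels KCNH2 (19.1 ± 4.92 to 42.3 ± 9.41 CPM) and KCNQ3 (6.30 ± 0.823 to 17.2 ± 7.12 CPM) and the calcium channels CACNA1E (0.556 ± 0.189 to 2.25 ± 0.773 CPM) and CACNA1B (31.2 ± 2.03 to 68.4 ± 23.6 CPM). Their adjusted p were 0.00402, 0.00859, 0.00599 and 0.0151, and CACNA1B reached 0.0582 without HET replicate 3. The 6 channels became 3 without HET replicate 2 or 3 or without WT replicate 1, 3 or 4, and 10 with the block.

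Guidance and adhesion genes went in both directions. Of 30 axon guidance genes 6 were higher and 1 lower (median 0.60). The netrin receptor DCC rose from 3.58 ± 1.07 to 19.8 ± 8.18 CPM (log2 2.45 ± 0.38, adjusted p = 0.00241), the slit receptor ROBO1 from 155.5 ± 34.3 to 399 ± 126 CPM (1.37 ± 0.22, adjusted p = 0.00332) and the semaphorin SEMA6A from 44.8 ± 7.84 to 124 ± 42.1 CPM (1.45 ± 0.24, adjusted p = 0.00333). For all 3, HET lay above WT in every library. The gene that fell was ROBO3, a divergent slit receptor (7.47 ± 0.944 to 3.48 ± 0.768 CPM; log2 −1.09 ± 0.26, adjusted p = 0.0345, 0.123 without HET replicate 3). Of 27 neural adhesion genes 3 were higher and 1, CNTN4, lower (median 0.87). The 3 became 6 without HET replicate 4, 1 without any other single library and 9 with the block. CNTN6, a contactin of the same family, went the other way from CNTN4, with 7.43, 7.78, 16.1 and 1.88 CPM in HET and 0.263 to 0.959 CPM in WT (log2 3.96 ± 0.63, adjusted p = 0.00276). NFASC, which anchors the axon's initial segment, rose from 168 ± 11.1 to 310 ± 80.9 CPM (adjusted p = 0.027; 0.104 without HET replicate 3). CNTNAP4 had at most 1 count in a WT library and 0 to 0.355 CPM in HET (adjusted p = 0.0235; 0.091 without WT replicate 1). Of 20 peripheral sensory and neural crest genes 4 were higher and 1 lower (median 0.61), and with the block 7 were higher. The neurotrophin-3 receptor NTRK3 gave 38.3, 47.0, 44.5 and 47.4 CPM in HET and 11.2 to 19.5 CPM in WT (log2 1.44 ± 0.21, adjusted p = 0.00144). P2RX3, an ATP-gated channel of pain neurons, rose from 8.96 ± 3.04 to 45.0 ± 22.7 CPM and EYA1 from 5.25 ± 0.864 to 12.9 ± 4.20 CPM (adjusted p = 0.00539 and 0.00397). POU4F2 reached at most 0.618 CPM in these 8 libraries (adjusted p = 0.0217; 0.085 without HET replicate 3), and TLX2, the one that fell, averaged 0.299 CPM in WT and 0.0787 CPM in HET (log2 −1.93 ± 0.47, adjusted p = 0.0418; 0.174 without HET replicate 3). ROBO3 passed in 2 of 8 fits without 1 library and TLX2 in 1 of 8. ROBO3 and TLX2 were named after their values were seen.

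**Figure D4:**
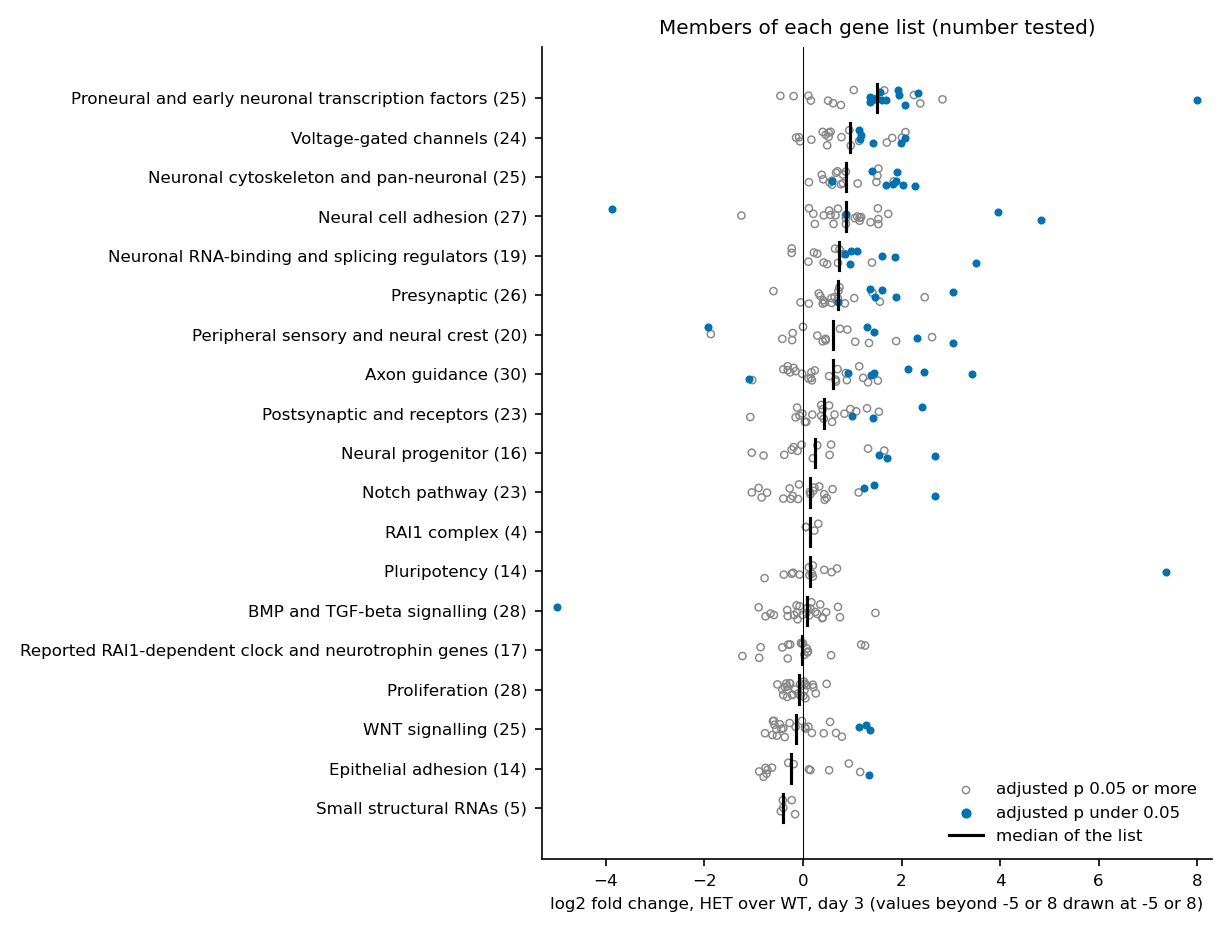
Log2 fold change of HET over WT at day 3 (x axis) for each tested member of 19 gene lists (rows, ordered by median); filled points passed the test, open points did not, and bars mark list medians. Medians run from 1.51 for proneural factors to −0.40 for the small structural RNAs.

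Division genes did not pass. Of 28 proliferation genes none was called in either direction by edgeR or by DESeq2 (median −0.08), and 2 had an unadjusted p under 0.05 in edgeR, where 3046 of all 21563 genes did. TOP2A gave 739.5 ± 237.5 CPM in WT and 657 ± 99.7 CPM in HET, and MKI67 477.5 ± 209 and 488 ± 216 CPM. Tested against HET, 16 of the 28 were lower in KO, where 1.58% of all genes tested were lower. Of 16 neural progenitor genes 3 were higher (median 0.25; 5 without HET replicate 4, 1 or 2 without any other single library and 6 with the block): PAX6 (2.46 ± 0.780 to 8.03 ± 2.73 CPM, adjusted p = 0.00541), ZIC2 (16.6 ± 6.05 to 48.5 ± 33.3 CPM, 0.0358) and HES5 (0.106 ± 0.0905 to 0.669 ± 0.211 CPM, 0.0496). ZIC2 reached 0.126 without WT replicate 1 and HES5 0.141 without HET replicate 3. Among 23 Notch genes 3 were higher (median 0.15; 3 and 1 lower without HET replicate 4, 1 or 2 without any other single library, and 5 and 2 lower with the block), namely the ligand DLL4 and the targets HEY1 and HES5. DLL4 gave 64.9, 74.6, 86.1 and 53.8 CPM in HET and 22.1, 28.0, 26.2 and 26.2 CPM in WT (log2 1.45 ± 0.16, adjusted p = 0.000151), and HEY1 rose from 2.06 ± 0.8294 to 4.82 ± 0.463 CPM (adjusted p = 0.0412; 0.118 without HET replicate 3). Among 25 WNT genes 3 were higher (median −0.15; 4 and 1 lower without HET replicate 4, 1 or 2 without any other single library, and 4 and 2 lower with the block): DKK3 (40.5 ± 9.66 to 103 ± 28.6 CPM, adjusted p = 0.00546), the pathway inhibitor NKD1 (30.4 ± 8.44 to 65.8 ± 17.6 CPM, 0.0139) and the receptor FZD1 (35.8 ± 7.80 to 86.2 ± 36.3 CPM, 0.0265). NKD1 reached 0.0667 without WT replicate 3 and FZD1 0.0992 without HET replicate 3. BMP3 was the 1 gene of 28 BMP and TGF-beta genes that passed (median 0.08), while 1 was higher and 2 lower with the block and without HET replicate 4. None of 17 clock and neurotrophin genes that have been tied to RAI1 passed in the edgeR fit of all libraries (median −0.03; 4 had an unadjusted p under 0.05). Fits with DESeq2 and with the block each called 1 higher and 1 lower, and edgeR without HET replicate 4 called 1 higher. PER3 (17.2 ± 5.61 CPM in WT and 9.27 ± 2.92 CPM in HET, adjusted p = 0.13) and BHLHE41 (2.57 ± 0.624 and 1.10 ± 0.616 CPM, adjusted p = 0.225), named after their values were seen, had all 4 HET libraries below all WT libraries. PER3 reached an adjusted p of 0.03 with the block and 0.0446 in DESeq2. BDNF was among those not called, at 0.8288 ± 0.271 CPM in WT and 0.869 ± 0.235 CPM in HET.

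Single markers of other cell states passed, where 2.52% of all genes tested were higher, 0.761% lower and 3.28% either. These lists are short, so 1 call in a list exceeds that share. Of 14 pluripotency genes 1 was higher, ZFP42 (adjusted p = 0.00408; 3 genes higher with the block), with 0.304, 1.35, 0.512 and 3.22 CPM in HET and a single count in all WT libraries together, and of 14 epithelial genes 1 was higher, PKP2 (1.17 ± 0.215 to 2.96 ± 0.774 CPM; adjusted p = 0.0373, 0.126 without WT replicate 1). None of the epithelial genes passed in any fit without 1 library, and with the block 1 was higher and 3 lower. Pluripotency genes summed to 559 to 703 CPM in WT and 728 to 915 CPM in HET, so that these groups did not overlap. Epithelial genes summed to 40.2 to 86.2 CPM in WT and 21.4 to 72.4 CPM in HET. In the mesendoderm list 1 of 2 tested genes was higher, CXCR4 (adjusted p = 0.0461). The CXCR4 call was lost in each of the 8 fits without 1 library (adjusted p up to 0.147, without WT replicate 1). This list summed to 2.88 to 4.24 CPM in WT and 5.53 to 8.48 CPM in HET, with TBXT and FOXA2 at 0 in both. In the glial list 1 of 8 was lower, PDGFRA (7.09 ± 2.47 to 2.84 ± 0.918 CPM, adjusted p = 0.0354). PDGFRA passed in 2 of 8 fits without 1 library (adjusted p up to 0.13, without HET replicate 3). Glial genes summed to 42.5 to 46.1 CPM in WT and 35.0 to 58.9 CPM in HET, with AQP4 at 0 in both. No mesenchymal (6 tested, 1 with an unadjusted p under 0.05), trophectoderm (3 tested, 1) or germline gene (2 tested, 0) passed in edgeR. The part of these cells in the neuronal result was not tested. Summed levels were 246 to 553 CPM in WT and 149 to 858 CPM in HET for mesenchymal genes, 10.4 to 36.7 and 10.6 to 83.5 CPM for trophectoderm genes with CGA and CGB5 at 0, and 1.47 to 2.13 and 1.12 to 2.75 CPM for germline genes with TDRD1 at 0. In bulk RNA, a change in the number of cells of a kind and a change in RNA per cell cannot be told apart.

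Among the most abundant genes called, several encode proteins of the neuronal membrane and skeleton. GPM6B, a membrane glycoprotein of neurons and glia, averaged 449 ± 118 CPM in WT and 943 ± 281 CPM in HET (log2 1.07 ± 0.23 SE, adjusted p = 0.02; 0.0812 without HET replicate 3). The axonal scaffold ANK2 rose from 181 ± 57.1 to 749 ± 344 CPM (2.05 ± 0.33, adjusted p = 0.00298), GPRIN3 from 137.5 ± 39.6 to 486 ± 107 CPM (1.84 ± 0.23, adjusted p = 0.000405) and the cytoskeletal linker DST from 262 ± 32.2 to 583 ± 194 CPM (1.15 ± 0.23, adjusted p = 0.0151; 0.0631 without WT replicate 3). CRMP1, which takes part in axon guidance, gave 416 to 505 CPM in WT and 649 to 711 CPM in HET (0.59 ± 0.15, adjusted p = 0.0442), and its call was lost in each of the 8 fits without 1 library. ANK2, GPRIN3 and GPM6B reached 1461, 1078 and 1300 CPM in KO. GPRIN3 was higher in KO than HET (log2 1.14, adjusted p = 0.0125), and at day 7 it was at 736 CPM in WT and 786 CPM in HET. Of the 472 risen genes tested in the WT time course, 338 also rose in WT between day 0 and day 7 and 65 fell (71.6% and 13.8%, against 36.3% and 30.7% of all genes tested in both). Of the 164 that fell in HET, 68 fell and 52 rose in WT over that time (41.5% and 31.7%, against 30.7% and 36.3%). Of all 22268 genes of the WT time course 67.4% were called. Their balance depends on the scaling, with 7886 higher and 7116 lower at day 7 in edgeR and 2301 higher and 13799 lower with limma on TPM, which moved the median of all genes from 0.10 to −0.52 on the log2 scale.

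Calls were more frequent on the X chromosome than on the others. Of its 683 tested genes 64 were called (9.37% against 3.28% of all genes), 50 higher and 14 lower, and 13 of the 50 had no more than 3 counts in any WT library. Chromosome 8 came next with 5.41%, and chromosome 22 had the lowest share, 1.16%. A stretch of 836 kb from MAGEH1 to KLF8 (55452105 to 56287889), chosen after its values were seen, held 6 tested features, and all 6 were higher in HET. WT libraries of day 3 had at most 1 count of any of them and WT libraries of any day at most 2. Such features pass the low-count filter only through HET or KO counts. Their direction was thus largely fixed by the filter, and the counts of features higher in HET are no separate support. KLF8, a Krüppel-like transcription factor at its end, gave 5.30, 6.08, 5.17 and 3.38 CPM in HET, 0 counts in WT, and 7.67 to 13.4 CPM in KO. All features tested in this stretch were higher in HET at day 0 (5 of 5) and at day 7 (6 of 6), with the same limit.

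A second stretch, also chosen after its values were seen, ran for 13070 kb from GRIA3 to MAP7D3 (123184153 to 136256482) and moved by less. Of its 48 tested protein-coding genes 12 were higher and none lower, with a median log2 of 0.34 against 0.05 for the 493 other protein-coding genes of the chromosome (28 higher and 13 lower). The called genes rose by 0.88 to 1.47 on the log2 scale. Among them the caspase inhibitor XIAP gave 80.9, 105, 100.3 and 64.2 CPM in HET and 29.4, 41.6, 35.4 and 32.4 CPM in WT (log2 1.33 ± 0.22 SE, adjusted p = 0.00321). PHF6, a nuclear protein with PHD-like zinc fingers, gave 211, 238, 236 and 192 CPM in HET and 100.3, 131, 103 and 113 CPM in WT (0.97 ± 0.14, adjusted p = 0.00134). The cohesin subunit STAG2 (152 ± 22.8 to 280 ± 59.5 CPM, 0.88 ± 0.17, adjusted p = 0.0109) and MMGT1 (37.8 ± 7.85 to 102.5 ± 23.1 CPM, 1.44 ± 0.17, adjusted p = 0.000338) rose as well. HET lay above WT in every library for all 4. These 4 were named after their values were seen. KO was lower than HET for STAG2, PHF6, MMGT1 and GRIA3 (log2 −1.23, −0.83, −0.84 and −1.45, adjusted p = 0.00156, 0.00554, 0.0154 and 0.00554). Over the 48 genes of the stretch 9 were lower and 2 higher in KO than in HET. Of the 493 other protein-coding genes of the chromosome 15 were lower and 30 higher. At day 0, 16 of 47 genes of the stretch were higher in HET and none lower (median 0.44), against 20 higher and 9 lower of 476 other protein-coding genes of the chromosome (median 0.00). At day 7, 21 of 46 were higher and 1 lower (median 0.74), against 74 higher and 31 lower of 479 (median 0.18).

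**Figure D5:**
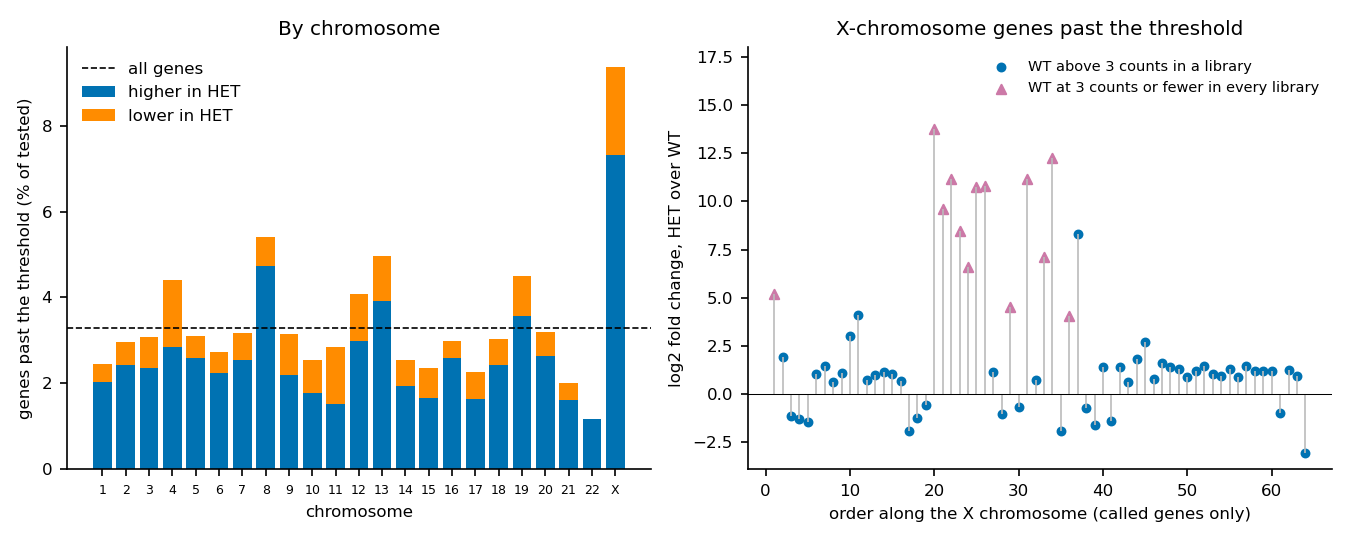
Left, percentage of tested genes past the threshold by chromosome, stacked by direction; the dashed line is the value for all genes, 3.28%. Right, log2 fold change of the 64 called X-chromosome genes in their order along the chromosome; triangles are genes with at most 3 counts in every WT library, whose fitted value depends on the small count added in the fit.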

How the data were processed

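Total RNA of H9 cells was extracted with TRIzol and RNeasy, made into libraries after removal of ribosomal RNA (NEBNext) and read as 151 bp pairs on a NovaSeq X Plus, in a single batch per the labels. The authors deposited estimated counts and TPM per gene. STAR 2.7.8a, RSEM 1.3.3, cutadapt 4.8, FastQC 0.11.8 and MultiQC 1.20 are named in the submitters' processing notes, with the build GRCh38. The annotation behind the counts is not given in the sources used here. Use of strand is not given in the sources used here. Deposited FPKM values were not used. Counts were rounded to whole numbers and 4 reporter rows were left out, which kept 62710 genes. Positions and biotypes come from GENCODE 29 on GRCh38, which 58274 (92.9%) of the gene IDs matched.

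Genes past edgeR's filter on low counts were tested with edgeR 4.0.16 (R 4.3.3, quasi-likelihood, Benjamini-Hochberg adjustment, threshold 0.05), with TMM scaling, in a fit of the 12 libraries of a day. Changes between days were interaction terms in a fit of all 36 libraries, and the WT time course was fitted on the 12 WT libraries. CPM use library totals without further scaling unless stated. Single values were tested by exact permutation (scipy 1.17.1, Python 3.11.15). Alternatives were DESeq2 1.42.0, limma 3.58.1 on log2(TPM + 1), other scalings and filters, the structural RNA share as a covariate, the replicate block and leaving out each library. Leaving out replicate 4 of both groups, and TPM without structural RNAs, were added after seeing the data. The scripts were tested on simulated data. Deviations of same-numbered HET and WT libraries of day 3 correlated at 0.156, 0.554, 0.116 and 0.66 for replicates 1 to 4. HET replicate 3 correlated more with WT replicate 2 (0.465) than with WT replicate 3. The labels do not say that the numbers mark a shared culture. The main fit therefore leaves the libraries unpaired, and the block is an alternative. Replicates are labelled biological. Nothing says whether they came from separate clones, so p-values measure the spread between these libraries.

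The rule for named genes took RAI1 and partners of its protein, the 12 called genes that rose most and the 12 that fell most (group mean of 5 CPM or more in HET or WT, HET and WT libraries apart), the 6 called genes with the highest mean CPM, and in each list up to 4 called members with the smallest adjusted p and up to 3 abundant members that did not pass. Not all of these are printed, some items are not reported here, and genes outside the rule are marked where they appear. The members and lists were chosen with earlier results of these data known. A fold over a group at 0 uses a floor of 3 counts per library.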

Additional observations from a re-analysis of the deposited data

Results flagged for a closer look

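In 11 of 193 groups of 4 libraries, 1 library lay far from the other 3 by Dixon's criterion, where chance alone gives about 9.65. For TYW3 (0.0234 CPM, WT replicate 3), EDA2R (0.0234, WT replicate 2), CNTNAP4 (0.0234, WT replicate 3), USP51 (0.0195, WT replicate 1) and ZFP42 (0.0195, WT replicate 1), the value is a single count beside 3 libraries at 0. HET replicate 4 stood apart for PGA3, at 1.595 CPM, and for STAG2, at 190.9 CPM against 302 to 315 in the others. Among WT libraries, MMGT1 stood apart at 49.4 CPM in replicate 2, CACNA1E at 0.837 CPM and CACNA1B at 28.1 CPM in replicate 4, and the total count of replicate 1 was 51.3 M.

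The HET-WT difference itself changed between days in an interaction test (edgeR, adjusted p under 0.05). Between day 0 and day 3 it changed in 67 genes. Values below are the change of the log2 difference among genes named in the report. The difference moved up, with HET rising relative to WT, in ANK2 2.03, DUSP5 8.26, GPRIN3 1.92, PDE4D 5.66, SLITRK5 4.27, MIR4500HG 6.81, DUSP5-DT 5.12, INSM1 2.56, EBF3 2.21, ELAVL3 2.55, CACNA1B 1.60, DCC 2.50, ROBO1 1.35 and NFASC 1.45. It moved down, with HET falling relative to WT, in BMP3 −11.29, CNTN4 −3.89, ADSS2 −3.92, RASSF8 −3.52, ENDOG −2.92 and EEA1 −1.78.

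Between day 3 and day 7 the difference changed in 1174 genes. The value of IRAK4, −4.44, is a fitted one over 0 WT counts at day 3 and at most 4 in a WT library at day 7, so its size depends on the small count added in the fit and is no estimate of a change. The difference moved down in GPM6B −1.24, DUSP5 −6.23, GPRIN3 −1.81, PDE4D −2.94, SLITRK5 −2.30, MIR4500HG −3.36, DUSP5-DT −4.22, NHLH1 −1.76, INSM1 −2.31, NEUROD4 −2.19, ELAVL3 −1.68, NOVA2 −1.33, CPLX1 −1.78, SV2B −1.90, GRIN2D −1.69, DCC −2.29, SEMA6A −1.95, CNTN6 −3.25, NTRK3 −2.12, DLL4 −2.35, PKP2 −2.19, TOP2A −2.85 and MKI67 −2.97. It moved up in BMP3 9.93, CNTN4 4.28, ADSS2 3.13, RASSF8 3.43, ENDOG 3.20, EEA1 1.93 and ROBO3 2.72.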

How the results depend on the processing

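For HET against WT at day 3, where 708 genes were called, DESeq2 called 1321, limma on TPM 39, limma on TPM without the small structural RNAs 360 (an alternative chosen after seeing the data) and the fit with the replicate block 1895. Leaving out 1 library gave 385 to 1416. The block kept all 708. A fit of only the HET and WT libraries, without KO, called 493, of which 464 were among the 708. In that fit 5 cytoskeletal, 3 presynaptic and 1 postsynaptic gene were higher, in place of 8, 6 and 3. Channels stayed at 6 and axon guidance genes went from 6 to 7. For day 0 (333) the counts were 655 with DESeq2, 184 with TPM and 689 with the block. For day 7 (3129) they were 271 with TPM, 1674 with only the groups compared and 1700 to 7674 without 1 library. For KO against HET (937) they were 1853 with DESeq2, 39 with TPM, 457 with only the groups compared, 2739 with the block, 1766 with the structural RNA share as a covariate and 334 to 1241 without 1 library. The change from day 0 to day 3 (67) gave 204 with DESeq2, 245 with the block, 107 with the covariate and 42 to 195 without 1 library. The change from day 3 to day 7 (1174) gave 109 with TPM, 389 with only the groups compared, 1990 with the block and 729 to 2353 without 1 library. WT day 7 against day 0 (15002) gave 9589 with the covariate. Genes higher in HET made up 76.8% of the day 3 calls, 65.2% with the block, 66.6% without HET replicate 4 and 64.1% with TPM.

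Of 87 named genes past the threshold, 18 stayed past it under every alternative run and 64 in every fit without 1 library. Signs turned in 4 genes that had not passed. TCF20 ranged from −0.04 to 0.11 without 1 library (negative without WT replicate 3). BDNF ranged from −0.08 to 0.31. TOP2A was 0.18 with TPM and 0.02 with TPM without structural RNAs. MKI67 was −0.08 with the covariate and ranged from −0.24 to 0.26. With TPM the median log2 difference over all genes was 0.131, and that of the proliferation list 0.21. The cause of these shifts was not tested. Genes higher made up 77.2% of the KO against HET calls with only the groups compared, against 63.7%, and 56.6% of the calls of the change from day 0 to day 3 without WT day 0 replicate 2, against 67.2%. Depth limits the genes at or near 0 counts in WT.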
